A study of Mus musculus with 18 samples.

Results

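Collagen genes were followed in RNA from mouse dorsal epidermis, as every row of the count table whose symbol has the form of a collagen chain (Col, a type number, a and a chain number). The rule found 36 genes among 21011, and 31 of them were among the 16517 genes with enough reads to be tested. The chains were sorted by the collagen type they build. Col17a1, Col7a1 and Col23a1, which keratinocytes make, were set against the 6 fibrillar chains typical of dermal fibroblasts, Col1a1, Col1a2, Col3a1, Col5a1, Col5a2 and Col5a3.

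The study removed parts of the Notch pathway from adult mouse skin. Tamoxifen was given at 8 weeks of age and skin was taken 10 weeks later. That time is described as the resting phase of the hair cycle, but genes of growing hair were high in some mice (below). KR mice (n = 4) lost Rbpj, which encodes the DNA-binding partner of activated Notch receptors, under K14-CreERT, a Cre driver of basal keratinocytes, and were set against 2 controls of their batch. LR mice (n = 3) lost Rbpj under Lrig1-CreERT2, whose driver gene marks upper hair follicle and sebaceous gland progenitors, and were set against 3 controls. KN1 mice (n = 4) lost the receptor gene Notch1 under a driver that the labels spell K14-CreERT1, and were set against 2 controls. The labels call the controls matched by batch or litter and give them no genotype. Both kinds of Cre act in epidermal cells, so no group carried a deletion aimed at fibroblasts. Skin was held in trypsin overnight and the epidermis was scraped off the dermis.

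Collagens are trimers of chains wound into a triple helix. Type XVII is a transmembrane collagen of the hemidesmosome, the junction that ties basal keratinocytes to the basement membrane, and type VII forms the anchoring fibrils beneath it. Type IV chains build the basement membrane network, while types I, III and V form the banded fibrils of the dermis and are made by fibroblasts.

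Total counts ran from 8076316 to 21216169 per mouse, and 2 controls (KR control 4 and KN1 control 1) were each sequenced on 2 occasions, per the labels. Notch1 fell in KN1, with 105, 156, 81.9 and 107 CPM (reads scaled to a common library size with TMM factors) against 251 and 172 CPM in KN1 controls (log2 fold change -0.91 ± 0.19 SE, adjusted p = 0.0251). Rbpj had 41.4, 45.9, 44.0 and 40.9 CPM in KR against 58.1 and 60.8 CPM in KR controls (log2 fold change -0.47 ± 0.17 SE, adjusted p = 0.135), and 29.9, 37.9 and 32.7 CPM in LR against 42.7, 43.3 and 73.1 CPM in LR controls (log2 fold change -0.66 ± 0.17 SE, adjusted p = 0.0659). No Rbpj mutant mouse overlapped its controls, and neither Rbpj difference passed the adjusted threshold. Every mutant mouse lay below all of its controls for 19.5% of all genes in KR and 9.29% in LR. Basal keratinocyte markers summed to 29716 to 35974 CPM in KR against 28125 and 26081 CPM in KR controls, to 27659 to 29595 CPM in LR against 23716 to 26431 CPM in LR controls, and to 34069 to 39797 CPM in KN1 against 35102 and 39812 CPM in KN1 controls. The KR and LR sums lay above all of their controls, and 1 of the 5 markers, the keratin gene Krt14, rose in KR (log2 fold change 0.82 ± 0.16 SE, adjusted p = 0.0211). Fibroblast markers that few other cells share (Pdgfra, Dcn, Lum and Dpt) summed to 1.07 to 5.90 CPM, with Lum at 0 in 6 mice. All 10 fibroblast markers with a row summed to 148 to 290.1 CPM in KR and 140.4 and 85.1 CPM in KR controls, to 53.0 to 115 CPM in LR and 104 to 117 CPM in LR controls, and to 82.9 to 118 CPM in KN1 and 97.1 and 137 CPM in KN1 controls, mostly through Thy1 and Fbln1. Fibroblast genes were thus low beside keratinocyte genes in all libraries. Hair matrix markers, genes of growing hair, summed to 15.1 to 185 CPM in KR against 21.5 and 72.3 CPM in KR controls, to 12.9 to 98.0 CPM in LR against 6.71 to 79.9 CPM in LR controls, and to 18.7 to 186 CPM in KN1 against 17.5 and 10.96 CPM in KN1 controls. One of them, Krt35, was at 72.8 CPM in KN1 2, 62.6 in KR 5, 39.8 in LR 2 and 32.3 in KR 4. It was at 31.6 CPM in LR control 2, 21.4 in KR control 6 and 16.4 in KN1 4. Every other mouse had at most 5.15 CPM. The mice were thus not alike in these genes, and no KN1 control was among the high ones. Melanocyte markers summed to 50.8 to 74.8 CPM in KN1 against 26.9 and 29.0 CPM in KN1 controls, and leukocyte markers to 56.4 to 63.7 CPM in KN1 against 98.5 and 82.5 CPM in KN1 controls. The part of these cell types in the results that follow was not tested.

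The promoters of 3 collagen genes are shown because the deleted Rbpj binds DNA. Col17a1 had the highest level of all collagens, Col8a1 was the collagen gene that passed the test in a mutant, and Col4a5 carried the motif searched. Each window runs from 250 bases before to 50 bases after the RefSeq start site (RefSeq, build GRCm38.p6). The motif was GTGGGAA, a core form of the RBPJ binding site, searched on both strands and given in capitals.
Col8a1 (chr16:57754688-57754987, minus strand): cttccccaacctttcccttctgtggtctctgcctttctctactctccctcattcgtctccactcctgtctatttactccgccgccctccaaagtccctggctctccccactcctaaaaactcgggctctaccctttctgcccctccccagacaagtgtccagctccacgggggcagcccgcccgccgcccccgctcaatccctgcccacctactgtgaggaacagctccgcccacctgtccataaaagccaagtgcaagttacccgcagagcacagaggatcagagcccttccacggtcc
Col4a5 (chrX:141475169-141475468, plus strand): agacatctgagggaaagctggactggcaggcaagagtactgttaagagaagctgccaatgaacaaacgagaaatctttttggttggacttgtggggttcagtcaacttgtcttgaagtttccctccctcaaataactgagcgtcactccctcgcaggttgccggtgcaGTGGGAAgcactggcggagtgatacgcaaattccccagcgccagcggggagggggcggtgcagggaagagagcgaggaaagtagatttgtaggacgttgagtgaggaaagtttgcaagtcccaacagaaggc
Col17a1 (chr19:47691993-47692292, minus strand): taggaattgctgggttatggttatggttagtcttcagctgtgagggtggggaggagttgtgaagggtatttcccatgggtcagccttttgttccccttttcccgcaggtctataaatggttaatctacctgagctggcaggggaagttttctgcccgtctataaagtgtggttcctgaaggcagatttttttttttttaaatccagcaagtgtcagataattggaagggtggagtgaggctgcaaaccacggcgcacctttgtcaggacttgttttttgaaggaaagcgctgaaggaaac

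The motif lay at position -82 from the start site in Col4a5, and these letters were not in the Col8a1 or Col17a1 window. RefSeq gave 31 windows for 29 of the collagen genes, and 2 windows held it (6.45%), the other being Col10a1 at position -115. Of all 32851 promoter windows, 2097 held it (6.38%), so the share among collagens was near that of promoters at large. A match is a description of letters and not evidence of binding.

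Levels per length came first, because chains can be compared with each other only after division by exon length. The divisor was the union of all annotated exons of a gene, and not the length of a main transcript. It was 4380 bases for Col6a1, 8326 for Col6a2 and 12426 for Col1a2, and the order of the chains depends on it. Col17a1 stood far above the rest, with a median of 550.4 CPM per kilobase over the 18 mice (range 295 to 765). It made up 60.5 to 79.7% of all collagen counts of a mouse. Col7a1 followed with a median of 40.0 CPM per kilobase (range 15.5 to 62.3), so every mouse had less Col7a1 than any mouse had Col17a1. Next came Col16a1, a collagen that binds to fibril surfaces (median 31.6), and Col18a1, the basement membrane collagen that yields endostatin (median 20.2). Their ranges overlapped each other and that of Col7a1 (20.5 to 50.5 and 12.3 to 45.9 CPM per kilobase).

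Below them were Col6a1 (median 13.3 CPM per kilobase), Col23a1, a transmembrane collagen found on keratinocytes (11.8), and Col8a2 (8.95). The main type IV chains lay close together, at 6.90 CPM per kilobase for Col4a2, 5.80 for Col4a6, 5.496 for Col4a1 and 3.98 for Col4a5. Neighbours in that order overlapped in range. The highest dermal fibrillar chain was Col1a2, at a median of 1.03 CPM per kilobase (range 0.579 to 2.01). Col5a2 (0.972), Col5a1 (0.866) and Col1a1 (0.791) followed it with overlapping ranges, and Col3a1 had 0.313 CPM per kilobase. All 6 dermal fibrillar chains together made up 0.512 to 2.43% of a mouse's collagen counts. In bulk RNA, fewer cells of a type and less RNA per cell cannot be told apart.

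**Figure D1:**
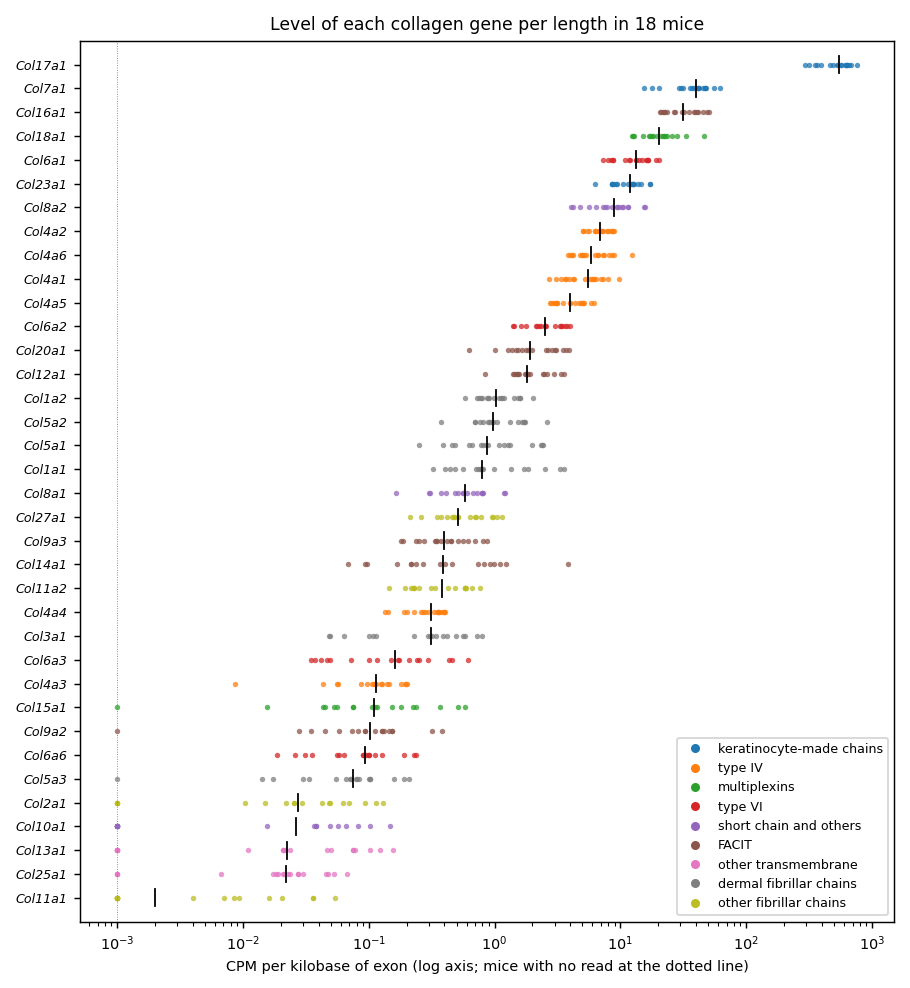
CPM per kilobase of exon (log axis) for all 36 collagen genes, 1 point per mouse, with a black bar at the median of 18 mice. Points on the dotted line are mice with no read. Col17a1 stands apart at the top, and the dermal fibrillar chains (grey) lie at or below a median of 1.03 CPM per kilobase.

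The remaining 5 genes had too few reads to test. Col10a1 reached at most 4 counts in a mouse, Col11a1 and Col13a1 at most 7 each, Col25a1 at most 8 and Col9a2 at most 11. No mutant effect on them was detectable at this depth.

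Between mutants and their own controls, 1 collagen gene passed the test, in 1 mutant. With edgeR's quasi-likelihood test and Benjamini-Hochberg adjustment over all genes, no collagen passed an adjusted p of 0.05 in KR, where 1.60% of all genes did (0.696% higher and 0.902% lower). In LR, where 1.12% of all genes passed, the gene was Col8a1, a short-chain collagen of vessel walls and of specialised basement membranes. It fell, as 0.248% of all genes did in LR. No collagen passed in KN1, where 1.97% of all genes did (0.860% higher and 1.11% lower). At an unadjusted p under 0.05 there were 5 collagens in KR (16.1%, against 22.9% of all genes), 3 in LR (9.68%, against 15.5%) and 3 in KN1 (9.68%, against 18.5%). DESeq2 called 2 in KR (Col7a1 and Col8a1), 2 in LR (Col5a1 and Col8a1) and 1 in KN1 (Col18a1). In KR it called more genes at large, 1086 of 16517, where edgeR called 264. Its counts over all genes in LR and KN1 are not given here. The DESeq2 calls there cannot be read as a result about collagens.

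The median log2 fold change of the 31 tested collagens was 0.19 in KR, -0.014 in LR and 0.20 in KN1, beside 0.040, -0.0041 and 0.018 over all genes tested. Positive fold changes were found for 18 of 31 collagens in KR (58.1%, against 53.4% of all genes), 15 in LR (48.4%, against 49.5%) and 20 in KN1 (64.5%, against 51.8%). Every mutant mouse was above all of its controls for 1 collagen in KR (3.23%, against 19.0% of all genes). This held for 6 in LR (19.4%, against 10.3%) and 5 in KN1 (16.1%, against 13.8%). Every mutant mouse was below all of them for 3 in KR (9.68%, against 19.5%). The same was seen for 1 in LR (3.23%, against 9.29%) and 1 in KN1 (3.23%, against 14.3%). In the tests of whether 2 mutants differed in their effects, no collagen passed in edgeR. The background was 0.00605% of all genes for KR against LR, 0.00% for KR against KN1 and 0.00605% for LR against KN1. At an unadjusted p under 0.05, 3, 2 and 1 collagens were found in these tests (9.68%, 6.45% and 3.23%, against 4.15%, 7.57% and 7.04% of all genes).

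**Figure D2:**
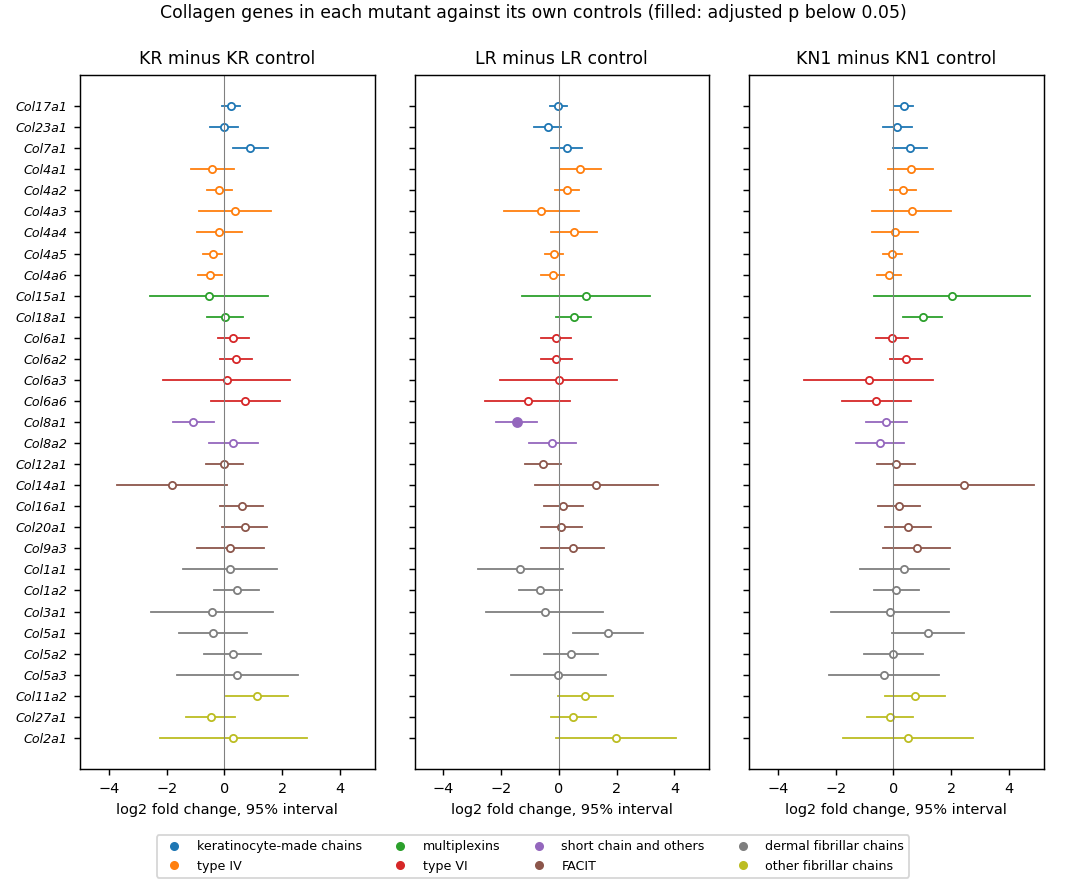
Log2 fold change of the 31 tested collagens (rows, coloured by type) in KR, LR and KN1 against their own controls, with 95% intervals from the edgeR fit. The single filled point is Col8a1 in LR, and most other intervals include 0.

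The keratinocyte-made chains came first by level. Col17a1 had 4109.8, 3704, 3384 and 3178 CPM in KR against 3233 and 2927 CPM in KR controls (log2 fold change 0.22 ± 0.15 SE, adjusted p = 0.395). In LR it had 3823, 3773 and 3938 CPM against 3429, 3658 and 4600.2 CPM in LR controls (log2 fold change -0.019 ± 0.14 SE, adjusted p = 0.967). In KN1 it had 2806, 2343, 2186 and 2126 CPM against 1775 and 1913 CPM in KN1 controls (log2 fold change 0.36 ± 0.16 SE, adjusted p = 0.224). The KN1 mice were all above their controls, as for 13.8% of all genes, while the groups overlapped in the other cohorts. No difference passed the test. With all 7 controls pooled, which adds controls of other batches, the KN1 value turned to -0.38 (adjusted p = 0.233). The 95% interval of the log2 fold change was -0.10 to 0.55 in KR, -0.32 to 0.28 in LR and 0.033 to 0.69 in KN1. The share of collagen counts that came from Col17a1 set the KN1 cohort apart, mutants and controls alike. It was 60.5 to 63.4% in KN1 and 61.2 and 63.9% in KN1 controls, and 73.2 to 79.7% in the mice of the other cohorts. Cohort and batch cannot be told apart here.

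Col7a1, the anchoring fibril chain, had 493, 369.7, 183 and 310.3 CPM in KR against 207 and 159.7 CPM in KR controls. This difference (log2 fold change 0.89 ± 0.29 SE, adjusted p = 0.0983) did not pass in edgeR. KR 4 lay between the controls and the other 3 KR mice lay above them. Without KR 4, Col7a1 passed in edgeR (adjusted p = 0.0218), and 651 of all genes were called in KR, beside 264 with all mice. With all 7 controls pooled, the log2 fold change was 0.096 (adjusted p = 0.866). The LR mice had 485, 436 and 463 CPM against 425, 429 and 299.6 CPM in LR controls (log2 fold change 0.26 ± 0.26 SE, adjusted p = 0.675). In KN1 it had 641, 398, 571 and 485 CPM against 381 and 321 CPM in KN1 controls (log2 fold change 0.58 ± 0.28 SE, adjusted p = 0.285). Every LR and every KN1 mouse was above its controls, by a margin that was small in LR. Of all genes, 10.3% in LR and 13.8% in KN1 had every mutant mouse above its controls. Col23a1 had 69.3, 72.7, 51.5 and 59.8 CPM in KR against 74.0 and 53.7 CPM in KR controls (log2 fold change -0.014 ± 0.24 SE, adjusted p = 0.978). It had 35.8, 52.8 and 49.6 CPM in LR against 48.8, 48.9 and 83.3 CPM in LR controls (log2 fold change -0.39 ± 0.23 SE, adjusted p = 0.417), and 66.3 to 98.5 CPM in KN1 against 72.4 and 79.2 CPM in KN1 controls (log2 fold change 0.14 ± 0.24 SE, adjusted p = 0.804). Its groups overlapped in all cohorts.

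Type IV chains form the network of basement membranes. Col4a1 and Col4a2, which pair in the common trimer, have start sites 21 bases apart on opposite strands. Col4a1 had 20.3, 42.8, 45.03 and 48.1 CPM in KR against 31.7 and 73.3 CPM in KR controls (log2 fold change -0.42 ± 0.35 SE, adjusted p = 0.483). Its LR levels were 46.4, 59.8 and 53.9 CPM against 31.2, 25.1 and 39.3 CPM in LR controls (log2 fold change 0.74 ± 0.33 SE, adjusted p = 0.300), and in KN1 29.1, 44.2, 27.0 and 52.2 CPM against 22.9 and 27.7 CPM in KN1 controls (log2 fold change 0.60 ± 0.36 SE, adjusted p = 0.394). The LR mice were all above their controls and the other groups overlapped. The difference between the KR and LR effects was -1.16 ± 0.48 (SE) on the log2 scale (unadjusted p = 0.0275, adjusted p = 0.980). Col4a2 had 36.1, 47.3, 47.9 and 46.6 CPM in KR against 42.3 and 58.7 CPM in KR controls (log2 fold change -0.18 ± 0.21 SE, adjusted p = 0.623). It had 44.8, 55.6 and 57.2 CPM in LR against 41.7, 36.9 and 52.0 CPM in LR controls (log2 fold change 0.27 ± 0.20 SE, adjusted p = 0.541), and 44.7, 57.5, 33.6 and 52.8 CPM in KN1 against 41.8 and 33.5 CPM in KN1 controls (log2 fold change 0.32 ± 0.21 SE, adjusted p = 0.430). Its groups overlapped in every cohort, and KR 1 was the lowest mouse of its group for both genes. The 2 genes share 22 exon bases, and reads there cannot be assigned without strand.

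Col4a5 and Col4a6, which join in a trimer of epithelial basement membranes, lie head to head on the X chromosome with start sites 1343 bases apart. Col4a5 had 26.8, 19.0, 26.7 and 20.9 CPM in KR against 29.5 and 32.7 CPM in KR controls (log2 fold change -0.41 ± 0.16 SE, adjusted p = 0.141). Col4a6 had 49.98, 31.6, 37.9 and 30.7 CPM in KR against 53.1 and 53.2 CPM in KR controls (log2 fold change -0.50 ± 0.20 SE, adjusted p = 0.150). All 4 KR mice were below both controls for each gene, a pattern that 19.5% of all genes showed in this cohort, and neither gene passed. In LR, Col4a5 had 31.6, 34.6 and 33.7 CPM against 33.0, 41.2 and 39.2 CPM in LR controls (log2 fold change -0.18 ± 0.15 SE, adjusted p = 0.597), and Col4a6 had 64.9, 70.4 and 58.6 CPM against 58.4, 68.5 and 98.0 CPM (log2 fold change -0.22 ± 0.19 SE, adjusted p = 0.626). In KN1, Col4a5 had 20.7, 19.6, 21.2 and 20.3 CPM against 18.6 and 23.5 CPM in KN1 controls (log2 fold change -0.038 ± 0.16 SE, adjusted p = 0.925), and Col4a6 had 40.8, 39.8, 32.7 and 33.7 CPM against 39.8 and 42.5 CPM (log2 fold change -0.16 ± 0.20 SE, adjusted p = 0.714). The LR and KN1 mice overlapped their controls for both genes. Xist, the transcript of the inactive X chromosome of females, was at 0.594, 290.5, 0 and 237 CPM in KR and 238 and 0.360 CPM in KR controls, so both sexes were in each of these groups. KR 3 and KR 5, the KR mice with Xist, had the lower values of both genes, and the part of sex in the difference was not tested. Xist was at 0.863, 513 and 514 CPM in LR against 0, 0.339 and 763 CPM in LR controls. It was at 172.5, 126, 0.554 and 0.689 CPM in KN1 against 131 and 0.109 CPM in KN1 controls. Both sexes were thus in those groups too, and the part of sex in the other results was not tested.

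Col4a3 and Col4a4, chains of a trimer best known from kidney glomeruli, were scarce. Col4a3 had 2.02, 1.09, 1.94 and 1.97 CPM in KR against 1.45 and 1.26 CPM in KR controls (log2 fold change 0.36 ± 0.59 SE, adjusted p = 0.744). LR values were 1.25, 0.0862 and 0.970 CPM against 1.06, 0.565 and 1.79 CPM in LR controls (log2 fold change -0.61 ± 0.61 SE, adjusted p = 0.680), and in KN1 1.11, 1.39, 0.554 and 1.15 CPM against 0.866 and 0.434 CPM in KN1 controls (log2 fold change 0.63 ± 0.65 SE, adjusted p = 0.646). Its groups overlapped in each cohort. Col4a4 had 3.68, 3.86, 2.97 and 3.16 CPM in KR against 4.20 and 3.51 CPM in KR controls (log2 fold change -0.18 ± 0.37 SE, adjusted p = 0.799). For LR, levels were 2.88, 2.16 and 4.09 CPM against 1.42, 2.03 and 2.77 CPM in LR controls (log2 fold change 0.53 ± 0.37 SE, adjusted p = 0.530), and in KN1 3.84, 4.28, 1.52 and 3.79 CPM against 2.45 and 4.23 CPM in KN1 controls (log2 fold change 0.042 ± 0.38 SE, adjusted p = 0.966). Neither gene passed in any mutant, and LR 2 had only 0.0862 CPM of Col4a3. An antisense gene overlaps 563 exon bases of Col4a3, and reads there cannot be assigned without strand.

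Col18a1, a basement membrane heparan sulphate proteoglycan, had 157, 322, 165 and 232 CPM in KN1 against 89.5 and 129 CPM in KN1 controls. All 4 KN1 mice lay above both controls, with KN1 2 the highest, and 13.8% of all genes had every KN1 mouse above its controls. The log2 fold change was 1.01 ± 0.32 (SE), a 2.01-fold ratio, with an adjusted p of 0.108 in edgeR. It passed in DESeq2. It also passed with all 7 controls of the series pooled, a comparison that adds controls of other batches and cannot tell deletion and batch apart. In LR it had 126, 137 and 180.0 CPM against 118, 106 and 86.3 CPM in LR controls (log2 fold change 0.51 ± 0.29 SE, adjusted p = 0.409), without overlap between the groups. In KR it had 154, 121, 147 and 158 CPM against 88.0 and 199 CPM in KR controls (log2 fold change 0.019 ± 0.30 SE, adjusted p = 0.978), and all KR mice lay between the 2 controls. The KR and KN1 effects differed by -0.99 ± 0.43 on the log2 scale (unadjusted p = 0.0344, adjusted p = 0.632). Its relative Col15a1 had 0 to 3.69 CPM over all mice, and its log2 fold change was -0.53 ± 0.97 (SE) for KR, 0.94 ± 1.04 for LR and 2.01 ± 1.28 for KN1.

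**Figure D3:**
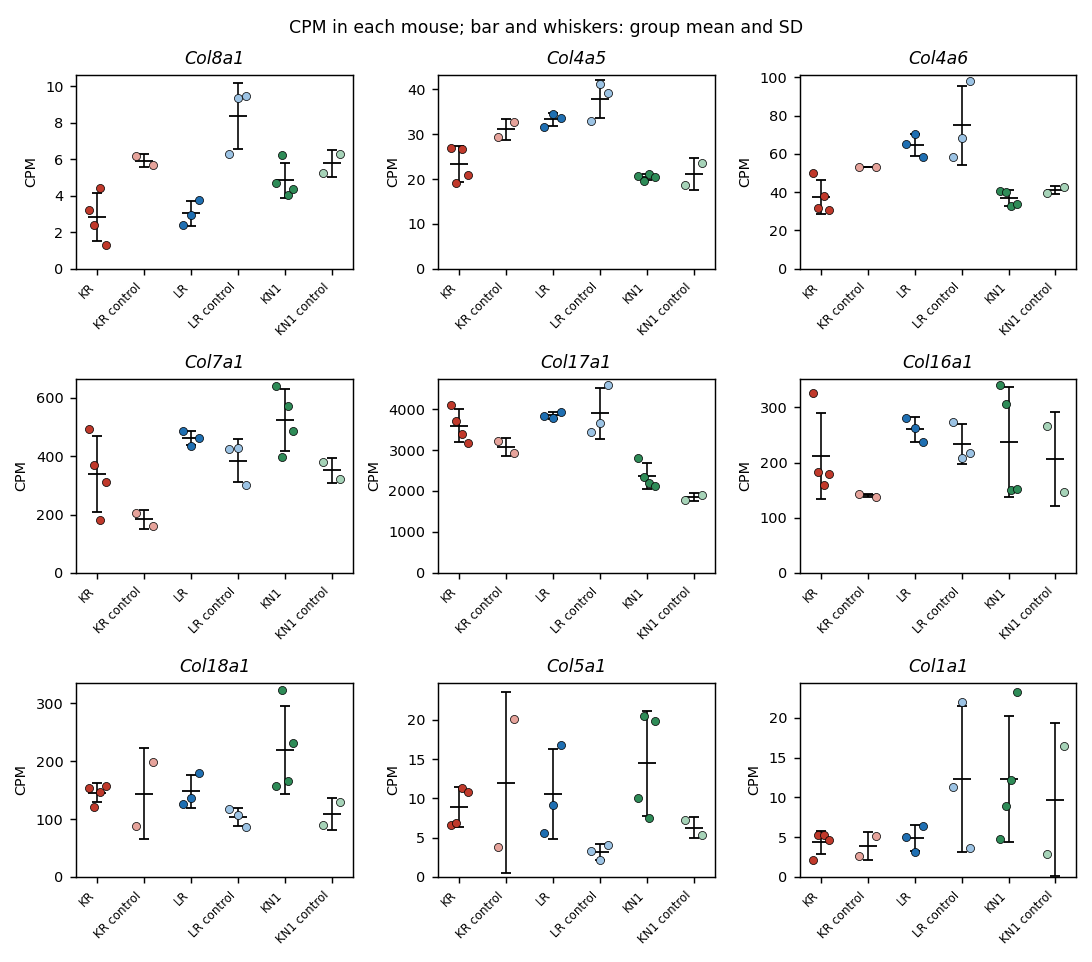
CPM of 9 collagen genes in every mouse, with the group mean and SD, mutants left of their own controls. LR mice lie below all LR controls for Col8a1, KR mice lie below both KR controls for Col8a1, Col4a5 and Col4a6, and Col1a1 and Col5a1 spread widely within groups.

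Col8a1, at 57624258 to 57754737 on the minus strand of chromosome 16 (GENCODE M21, GRCm38), makes short chains that join with Col8a2 products into hexagonal lattices. It had 2.40, 2.93 and 3.77 CPM in LR against 6.27, 9.38 and 9.48 CPM in LR controls. Every LR mouse was below every LR control, a pattern that 9.29% of all genes showed. The gene fell, with a log2 fold change of -1.47 ± 0.33 (SE), a 2.77-fold lower level, and an adjusted p of 0.0371 in edgeR. In KR it had 3.21, 2.38, 4.40 and 1.28 CPM against 6.18 and 5.68 CPM in KR controls, so all KR mice were below both controls, as for 19.5% of all genes. This KR difference (log2 fold change -1.08 ± 0.34 SE, adjusted p = 0.0909) did not pass. In KN1 it had 4.70, 6.25, 4.01 and 4.37 CPM against 5.25 and 6.29 CPM in KN1 controls, with overlap between the groups (log2 fold change -0.25 ± 0.34 SE, adjusted p = 0.744). The KR difference passed in DESeq2, without KR 4 and with all 7 controls pooled. These settings called 1086, 651 and 809 of all genes in KR, beside 264 in the main fit, and pooling adds controls of other batches. The LR and KN1 effects differed by -1.22 ± 0.48 on the log2 scale (unadjusted p = 0.0204, adjusted p = 0.596), and the KR and LR effects by 0.39 ± 0.48 (adjusted p = 0.980).

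The Col8a1 call in LR rested on a narrow margin. It was lost when the LR cohort was fitted alone (adjusted p = 0.0780), when the 3 controls with a second name in the labels were left out (0.137), and when 1 mouse was left out among LR 1, LR 2, LR 3, LR control 3, LR control 5 and KN1 4 (0.0510 to 0.129), while the log2 fold change lay between -1.65 and -1.19 under every alternative run for it. Col8a2 ran over 18.2 to 70.9 CPM in the 18 mice. Its log2 fold changes were 0.31 ± 0.40 (SE, adjusted p = 0.673) in KR, -0.23 ± 0.38 (SE, adjusted p = 0.821) in LR and -0.48 ± 0.39 (SE, adjusted p = 0.534) in KN1, and its groups overlapped in all cohorts.

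Type VI collagen forms beaded microfibrils that link cells to the matrix. Col6a1 had 72.7, 88.2, 65.3 and 83.6 CPM in KR against 51.9 and 73.2 CPM in KR controls (log2 fold change 0.31 ± 0.26 SE, adjusted p = 0.490). The LR mice had 31.7, 38.3 and 51.3 CPM against 36.8, 35.02 and 58.0 CPM in LR controls (log2 fold change -0.10 ± 0.25 SE, adjusted p = 0.884), and in KN1 58.8, 70.3, 38.5 and 61.9 CPM against 47.3 and 71.5 CPM in KN1 controls (log2 fold change -0.045 ± 0.26 SE, adjusted p = 0.946). Mutants and controls overlapped in each cohort. Its partner Col6a2 had 27.5, 31.6, 20.8 and 33.1 CPM in KR against 17.8 and 25.2 CPM in KR controls (log2 fold change 0.40 ± 0.27 SE, adjusted p = 0.374). Its LR levels were 11.9, 11.6 and 21.4 CPM against 14.9, 13.4 and 19.4 CPM in LR controls (log2 fold change -0.094 ± 0.25 SE, adjusted p = 0.898), and in KN1 28.1, 28.8, 18.7 and 30.2 CPM against 18.04 and 21.1 CPM in KN1 controls (log2 fold change 0.44 ± 0.27 SE, adjusted p = 0.391). The same held for Col6a2 as for Col6a1. Col6a3, the chain that completes the usual type VI trimer, was far lower at 0.415 to 7.33 CPM. Per kilobase its median was 0.161 CPM, against 13.3 for Col6a1 and 2.51 for Col6a2. Mouse by mouse, Col6a3 had 0.594, 1.39, 2.05 and 3.55 CPM in KR against 1.21 and 2.52 CPM in KR controls (log2 fold change 0.073 ± 1.04 SE, adjusted p = 0.9749). LR values were 0.863, 3.02 and 5.49 CPM against 7.33, 1.81 and 0.447 CPM in LR controls (log2 fold change -0.014 ± 0.96 SE, adjusted p = 0.997), and in KN1 0.495, 2.08, 0.415 and 2.87 CPM against 0.561 and 5.21 CPM in KN1 controls (log2 fold change -0.86 ± 1.05 SE, adjusted p = 0.707). The values spread widely within groups, most of all in LR controls, and overlapped. Col6a6 had 0.831, 2.08, 0.512 and 2.17 CPM in KR against 0.580 and 1.17 CPM in KR controls (log2 fold change 0.73 ± 0.57 SE, adjusted p = 0.459). For LR, levels were 0.288, 0.172 and 0.323 CPM against 0.236, 0.904 and 0.537 CPM in LR controls (log2 fold change -1.09 ± 0.69 SE, adjusted p = 0.473), and in KN1 0.866, 0.926, 0.830 and 0.919 CPM against 1.02 and 1.74 CPM in KN1 controls (log2 fold change -0.59 ± 0.57 SE, adjusted p = 0.610). Every KN1 mouse was below both controls for Col6a6, as for 14.3% of all genes, and the other groups overlapped. No type VI gene passed in any mutant.

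The collagens with interrupted triple helices attach to the surface of fibrils. Col16a1 had 327, 182, 159 and 179 CPM in KR against 143 and 138 CPM in KR controls. All 4 KR mice were above both controls, with KR 1 far above the other 3; 19.0% of all genes had every KR mouse above its controls. The difference (log2 fold change 0.59 ± 0.35 SE, adjusted p = 0.325) did not pass. For LR it was 0.15 ± 0.32 (SE, adjusted p = 0.865) and for KN1 0.20 ± 0.35 (SE, adjusted p = 0.803). Col14a1 had 5.197, 7.76, 1.52 and 6.43 CPM in KN1 against 1.17 and 0.651 CPM in KN1 controls (log2 fold change 2.44 ± 1.14 SE, adjusted p = 0.269), and 1.66, 1.88, 5.73 and 7.00 CPM in KR against 2.61 and 26.8 CPM in KR controls (log2 fold change -1.82 ± 0.89 SE, adjusted p = 0.236). With all 7 controls pooled the KN1 log2 fold change was 0.027 (adjusted p = 0.987). KN1 mice were all above their own controls, whereas KR 4 and KR 5 lay between the 2 KR controls and KR 1 and KR 3 below both. The difference of the 2 effects was -4.27 ± 1.46 (SE) on the log2 scale (unadjusted p = 0.0105, adjusted p = 0.572). Col12a1 (12.7 to 54.6 CPM over all mice), Col20a1 (3.24 to 20.0 CPM) and Col9a3 (0.693 to 3.36 CPM) passed in no mutant.

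Among the dermal fibrillar chains, Col1a1 had 2.14, 5.25, 5.32 and 4.64 CPM in KR against 2.66 and 5.14 CPM in KR controls (log2 fold change 0.19 ± 0.76 SE, adjusted p = 0.904). In LR it had 4.99, 3.19 and 6.46 CPM against 11.4, 21.9 and 3.67 CPM in LR controls (log2 fold change -1.33 ± 0.70 SE, adjusted p = 0.377), and in KN1 4.83, 8.91, 12.2 and 23.2 CPM against 2.91 and 16.5 CPM in KN1 controls (log2 fold change 0.38 ± 0.72 SE, adjusted p = 0.822). Values spread several-fold within some groups and overlapped in every cohort. Its partner Col1a2 was steadier, with 19.8, 14.4, 12.3 and 19.7 CPM in KR against 10.8 and 14.0 CPM in KR controls (log2 fold change 0.42 ± 0.37 SE, adjusted p = 0.504). The LR mice had 7.19, 9.40 and 11.2 CPM against 14.9, 19.0 and 9.66 CPM in LR controls (log2 fold change -0.64 ± 0.35 SE, adjusted p = 0.389), and in KN1 13.4, 11.00, 8.997 and 24.9 CPM against 9.94 and 17.6 CPM in KN1 controls (log2 fold change 0.10 ± 0.36 SE, adjusted p = 0.910). Its groups overlapped too. Col3a1, the chain of the finer type III fibrils, had 0.475, 0.990, 3.38 and 3.85 CPM in KR against 0.483 and 5.77 CPM in KR controls (log2 fold change -0.44 ± 0.99 SE, adjusted p = 0.823). Its LR levels were 1.05, 3.02 and 3.12 CPM against 4.14, 5.54 and 0.626 CPM in LR controls (log2 fold change -0.49 ± 0.95 SE, adjusted p = 0.849), and in KN1 1.11, 4.86, 2.91 and 7.81 CPM against 2.24 and 7.16 CPM in KN1 controls (log2 fold change -0.12 ± 0.96 SE, adjusted p = 0.960). The groups overlapped in every cohort, and KR 1 and KR control 4 had the lowest levels.

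Type V chains sit inside type I fibrils and limit their width. Col5a1 had 5.66, 9.14 and 16.8 CPM in LR against 3.31, 2.15 and 4.11 CPM in LR controls, without overlap between the groups; 10.3% of all genes had every LR mouse above its controls. The log2 fold change was 1.70 ± 0.57 (SE), with an adjusted p of 0.162 in edgeR, past the threshold in DESeq2 alone among the alternatives run, and LR 3 was the highest mouse. It was 0.67 with all 7 controls pooled (adjusted p = 0.437) and 1.20 without LR 3 (adjusted p = 0.621; both log2 fold changes). In KN1 it had 10.0, 20.5, 7.47 and 19.9 CPM against 7.24 and 5.32 CPM in KN1 controls (log2 fold change 1.19 ± 0.59 SE, adjusted p = 0.290), again without overlap. In KR it had 6.65, 6.83, 11.4 and 10.9 CPM against 3.86 and 20.2 CPM in KR controls (log2 fold change -0.40 ± 0.55 SE, adjusted p = 0.690), and all KR mice lay between the controls. The KR and LR effects differed by -2.11 ± 0.79 on the log2 scale (unadjusted p = 0.0163, adjusted p = 0.980). On the opposite strand, 2 annotated genes overlap 212 exon bases of Col5a1, and reads there cannot be assigned without strand. Col5a2, the usual partner of Col5a1 products, had 16.5, 16.5, 15.8 and 12.8 CPM in KR against 8.74 and 16.8 CPM in KR controls (log2 fold change 0.28 ± 0.47 SE, adjusted p = 0.751). LR values were 6.71, 8.97 and 25.1 CPM against 7.80, 7.34 and 14.8 CPM in LR controls (log2 fold change 0.43 ± 0.44 SE, adjusted p = 0.693), and in KN1 8.54, 10.1, 3.60 and 9.31 CPM against 6.73 and 9.33 CPM in KN1 controls (log2 fold change -0.0084 ± 0.48 SE, adjusted p = 0.995). Its groups overlapped in all cohorts. Col5a3 stayed at 0 to 1.42 CPM in the 18 mice, and its log2 fold change was 0.45 ± 1.00 (SE) for KR, -0.027 ± 0.78 for LR and -0.32 ± 0.91 for KN1. Neither gene passed in any mutant.

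Among the fibrillar chains usually tied to cartilage, Col2a1 had few reads. It had 1.05, 1.21 and 0.646 CPM in LR against 0.236, 0 and 0.447 CPM in LR controls (log2 fold change 1.97 ± 0.98 SE, adjusted p = 0.346). Col11a2 had 4.03, 3.36 and 5.28 CPM in LR against 2.96, 1.58 and 2.15 CPM in LR controls (log2 fold change 0.92 ± 0.46 SE, adjusted p = 0.349), and 4.04, 4.56, 1.33 and 1.58 CPM in KR against 1.55 and 0.991 CPM in KR controls (log2 fold change 1.14 ± 0.51 SE, adjusted p = 0.197). LR mice were above their controls for both genes, and Col11a2 values of KR 4 and KR 5 were close to those of KR control 4. Col27a1 ran over 2.77 to 14.9 CPM and passed in no mutant.

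**Figure D4:**
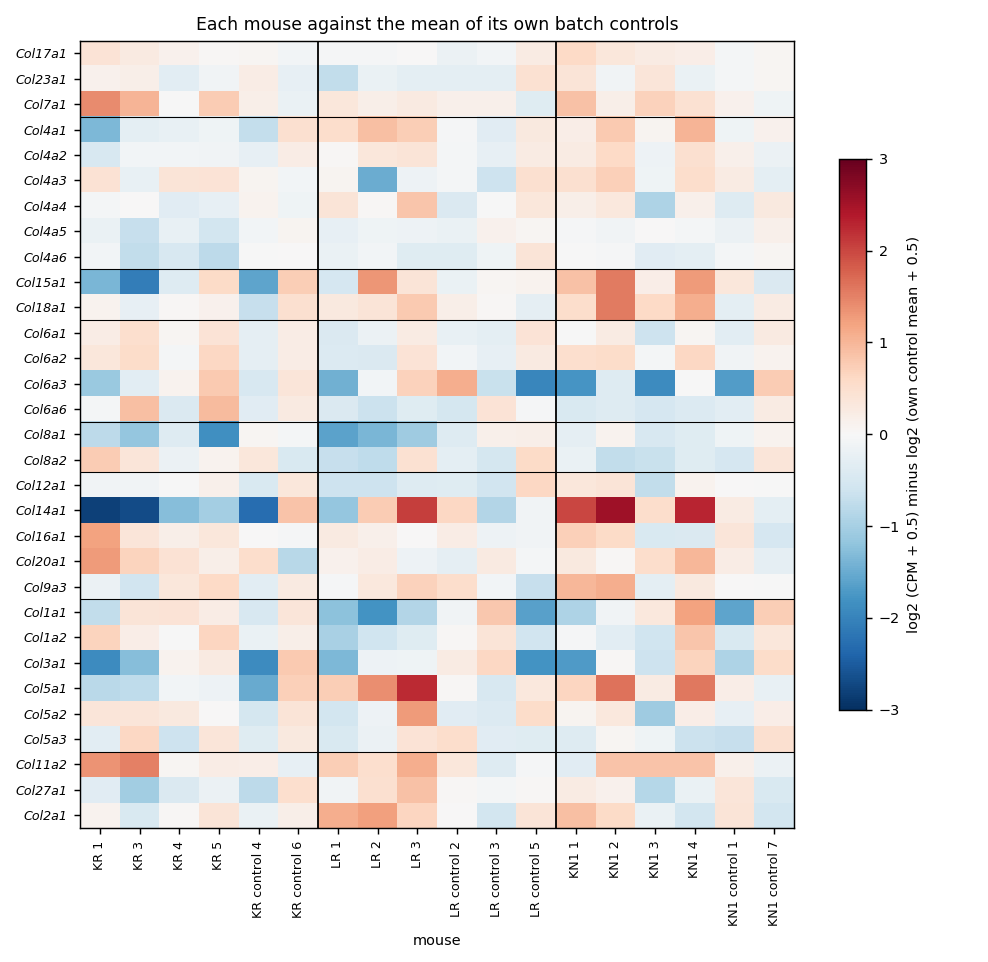
Each mouse's level of the 31 tested collagens as a log2 ratio to the mean of its own controls (CPM plus 0.5), with mutants left of controls in each cohort and genes grouped by type. Col8a1 is low in all LR and all KR mice, Col7a1 is high in 3 of 4 KR mice, and low-count genes such as Col14a1 and Col3a1 differ between mice of 1 group.

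Set against each other, the keratinocyte-made and the dermal fibrillar chains showed different spreads. The summed level of the keratinocyte-made chains was 4672, 4146, 3618 and 3548 CPM in KR and 3514 and 3140.5 CPM in KR controls. In LR it was 4343, 4263 and 4450.5 CPM, against 3903, 4136 and 4983 CPM in LR controls, and in KN1 3546, 2811, 2855 and 2678 CPM, against 2228 and 2313 CPM in KN1 controls. All KR and all KN1 mice were above their controls, and LR mice lay among theirs. The sum of the basal keratinocyte markers was also higher in every KR mouse than in KR controls, although 2 of its 5 genes had a log2 fold change above 0, and its part in these values was not tested. The summed level of the dermal fibrillar chains was 45.7, 44.7, 48.1 and 52.4 CPM in KR and 26.7 and 62.3 CPM in KR controls. In LR it was 26.1, 34.4 and 64.0 CPM, against 42.9, 56.5 and 33.4 CPM in LR controls, and in KN1 38.2, 56.0, 35.7 and 85.4 CPM, against 29.3 and 56.97 CPM in KN1 controls. The groups overlapped in every cohort, and the 2 KR controls enclosed all KR mice.

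None of the 3 keratinocyte-made and none of the 6 dermal fibrillar chains passed in edgeR in any mutant. The median log2 fold change of the keratinocyte-made chains was 0.22 in KR, -0.019 in LR and 0.36 in KN1, and that of the dermal fibrillar chains 0.23 in KR, -0.26 in LR and 0.046 in KN1. The fibrillar medians turned on single controls. That of KR was -0.33 without KR control 4 and 0.99 without KR control 6, and that of KN1 was -0.35 without KN1 control 1 and 0.95 without KN1 control 7. The fibroblast markers Pdgfra, Dcn, Lum and Dpt summed to 1.07, 2.58, 3.89 and 5.33 CPM in KR and 1.16 and 4.59 CPM in KR controls. They summed to 2.11, 5.26 and 4.09 CPM in LR against 2.84, 4.97 and 2.50 CPM in LR controls, and to 2.10, 5.90, 1.38 and 4.14 CPM in KN1 against 1.33 and 2.82 CPM in KN1 controls. KR control 6 and KN1 control 7, the controls with more of the fibrillar chains, had the higher sum of these 4 genes in their pair, although Pdgfra was lower in each. The sum of all 10 fibroblast markers went the same way in KN1 controls but the opposite way in KR controls, where KR control 6 had 85.1 CPM and KR control 4 had 140.4 CPM. That order followed Thy1, at 25.8 CPM in KR control 6 and 92.0 CPM in KR control 4. Fbln1 had 52.4 and 44.7 CPM in the same mice, and the other markers, at most 2.79 CPM there, went either way. Outside these pairs, the 4-gene sum and the fibrillar sum ranked the mice alike in LR controls but not in KR, LR or KN1. LR 2 had the highest 4-gene sum of LR (5.26 CPM) with 34.4 CPM of fibrillar chains. LR 3 had a 4-gene sum of 4.09 CPM with 64.0 CPM of fibrillar chains. The part of carried-over dermal cells in the fibrillar levels was not tested.

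**Figure D5:**
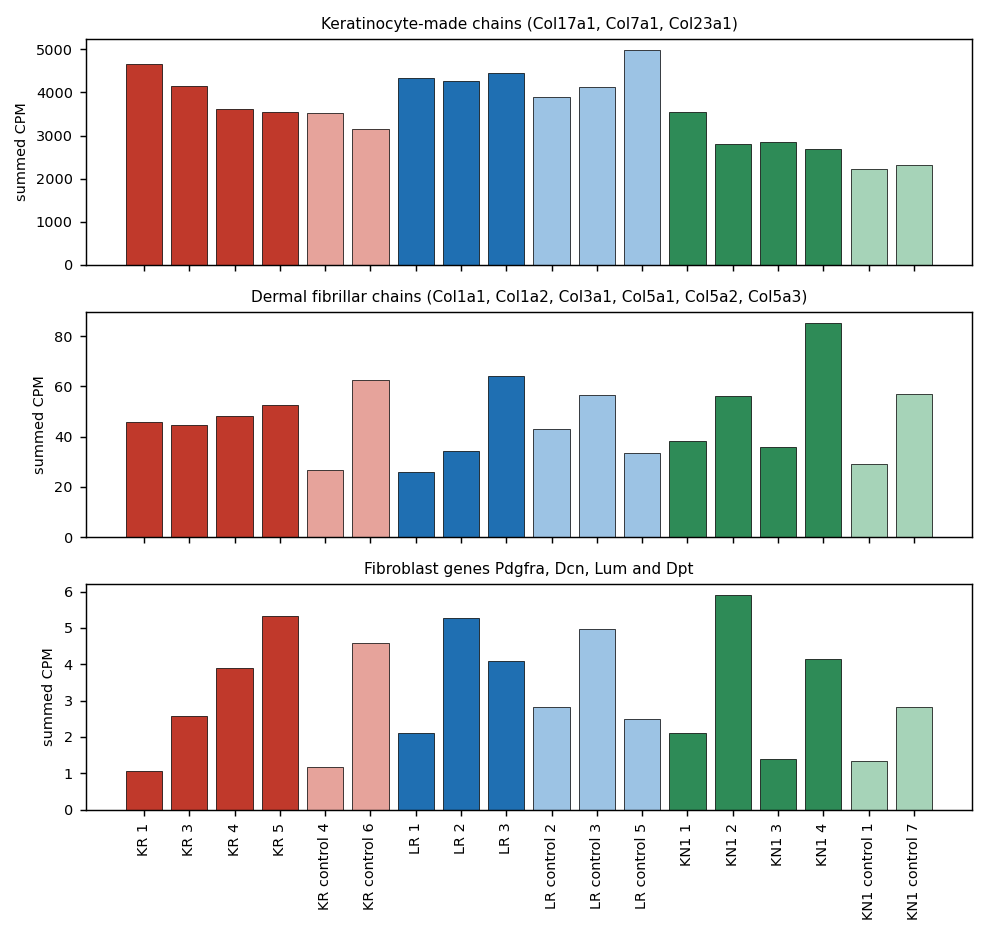
Summed CPM per mouse of the keratinocyte-made chains (top), the dermal fibrillar chains (middle) and 4 fibroblast genes (bottom), with mutants left of their own controls. The top panel is on a far larger scale and steadier within groups, while the fibrillar chains vary from 26.1 to 85.4 CPM and the fibroblast genes from 1.07 to 5.90 CPM.

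Among the enzymes and partners of collagens, 3 calls were made over the 3 mutants. The alternatives were run for collagen genes only, so how far these 3 calls depend on the processing was not tested. Of 15 tested genes of chain synthesis and folding, 1 rose in LR (6.67%, against 0.872% of all genes) and 0 passed in KR or KN1. The LR gene was P3h3, a member of the prolyl 3-hydroxylase family, with 14.9, 13.1 and 13.8 CPM in LR against 7.09, 8.70 and 5.81 CPM in LR controls (log2 fold change 0.95 ± 0.20 SE, adjusted p = 0.0233). In KR it had 12.3, 10.2, 8.39 and 11.2 CPM against 7.29 and 5.41 CPM in KR controls (log2 fold change 0.72 ± 0.22 SE, adjusted p = 0.0796), also without overlap. P4ha2, a catalytic subunit of prolyl 4-hydroxylase, which stabilises the triple helix, had 17.6, 18.03, 15.7 and 21.3 CPM in KR against 7.00 and 9.28 CPM in KR controls (log2 fold change 1.16 ± 0.29 SE, adjusted p = 0.0528) and 25.4, 24.6 and 25.7 CPM in LR against 13.8, 12.1 and 15.4 CPM in LR controls (log2 fold change 0.87 ± 0.26 SE, adjusted p = 0.119). The lysyl hydroxylase genes Plod1 and Plod3 had log2 differences of 0.61 ± 0.17 (SE, adjusted p = 0.0671) and 0.49 ± 0.13 (SE, adjusted p = 0.0605) in KR and did not pass there. In LR, Plod3 had 0.46 ± 0.12 (SE, adjusted p = 0.0727). In KN1 the genes with the smallest p were Plod1 (log2 fold change 0.52 ± 0.17 SE, adjusted p = 0.114) and P3h3 (log2 fold change 0.67 ± 0.22 SE, adjusted p = 0.112). The median log2 fold change of this list was 0.14 for KR, 0.29 for LR and 0.22 for KN1.

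Of 10 tested genes of propeptide removal and crosslinking, none passed in edgeR in any mutant. Bmp1, which cleaves the carboxyl propeptide, had log2 differences of 0.70 ± 0.23 (SE, adjusted p = 0.143) in LR and 0.77 ± 0.25 (SE, adjusted p = 0.115) in KN1, and the lysyl oxidase family gene Loxl4 had 1.19 ± 0.43 (SE, adjusted p = 0.186) in LR. Adamts2, which removes the amino propeptide, had 2.13 ± 0.85 (SE, adjusted p = 0.189) in KN1, and Loxl3 and Loxl4 had 0.69 ± 0.31 (SE, adjusted p = 0.201) and 0.73 ± 0.47 (SE, adjusted p = 0.363) in KR. Of 6 tested genes of collagen breakdown none passed: Mmp14, a membrane-bound collagenase, had 0.52 ± 0.14 (SE, adjusted p = 0.0875) in LR but -0.47 ± 0.15 (SE, adjusted p = 0.112) in KN1, and Mmp9, a gelatinase, had 0.85 ± 0.40 (SE, adjusted p = 0.211) in KR and -0.90 ± 0.39 (SE, adjusted p = 0.227) in KN1. The other genes with the smallest p in this list were Timp3, a metalloproteinase inhibitor, in KR (log2 fold change -0.26 ± 0.20 SE, adjusted p = 0.440) and its relative Timp2 in LR (log2 fold change -0.25 ± 0.19 SE, adjusted p = 0.566). Of 7 collagen receptor genes none passed. Ddr1, the collagen-binding receptor kinase of epithelia, had 0.50 ± 0.15 (SE, adjusted p = 0.0796) in KR, 0.31 ± 0.14 (SE, adjusted p = 0.285) in LR and 0.32 ± 0.15 (SE, adjusted p = 0.265) in KN1. Integrin chain genes were next, with 0.98 ± 0.55 (SE, adjusted p = 0.292) for Itga10 in KR, -0.90 ± 0.41 (SE, adjusted p = 0.300) for Itga1 in LR and 0.46 ± 0.24 (SE, adjusted p = 0.328) for Itga2 in KN1.

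Of 8 tested hemidesmosome and anchoring partners of Col17a1, 2 rose in KN1 (25.0%, against 0.860% of all genes) and 0 passed in KR or LR. Plec, the plakin that links the junction to keratins, had 1141, 1079, 1438 and 1419.9 CPM in KN1 against 753 and 699 CPM in KN1 controls (log2 fold change 0.81 ± 0.16 SE, adjusted p = 0.0173). Itgb4, the integrin chain that binds both plectin and type XVII collagen, had 759, 722, 914 and 871 CPM in KN1 against 539 and 501 CPM in KN1 controls (log2 fold change 0.65 ± 0.16 SE, adjusted p = 0.0456). All KN1 mice were above both controls for both genes. In KR, Itgb4 had 829, 855, 619 and 748 CPM against 598 and 429.7 CPM in KR controls (log2 fold change 0.57 ± 0.16 SE, adjusted p = 0.0705), also without overlap, and Plec had 0.41 ± 0.15 (SE, adjusted p = 0.134). In LR, Plec had 0.36 ± 0.14 (SE, adjusted p = 0.223) and Itga6 had -0.37 ± 0.18 (SE, adjusted p = 0.341). Lama3 and Lamb3, which encode laminin chains of the basement membrane, did not pass in any mutant. The log2 fold change of Lama3 was 0.061 in KR, -0.18 in LR and 0.38 in KN1. That of Lamb3 was 0.054 in KR, 0.21 in LR and 0.058 in KN1.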

How the data were processed

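The authors deposited raw read counts per gene, without normalization, for 18 mice. The submitters' processing notes name STAR, HTSeq, DESeq2 and mm10; versions, roles and the strand setting are not given in the sources used here. Of the 36 collagen rows, 11 share exon bases with another gene in GENCODE M21, whose union exon length also gave the levels per kilobase. CPM values were computed from the deposited counts with TMM factors.

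A single edgeR 4.0.16 model (R 4.3.3) held 6 group means over all mice, so that groups of 2 borrowed their spread from the rest. Genes passed filterByExpr, and contrasts were tested two-sided with the robust quasi-likelihood F test and Benjamini-Hochberg adjustment over 16517 genes at 0.05. Standard errors came from the F statistic. The common biological coefficient of variation was 0.225. Total counts per library ran over 8076316 to 9562955 (KR) and 11236817 to 20260259 (KR control), over 8541208 to 11239648 (LR) and 8299785 to 11056572 (LR control), and over 8103155 to 9213875 (KN1) and 10926731 to 21216169 (KN1 control). Columns of a group were never repeats (chi-square per degree of freedom at least 5.98); each is labelled a separate mouse, and p-values reflect spread among these mice only. The steps were also run on simulated counts, drawn with the same mean per gene in all batches apart from planted changes. Differences of batch or cell type were not covered by that run.

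The members, lists and tests were chosen with earlier results of these data known, so lists are given by counts and medians without a test. Values per mouse are given for genes past the threshold, the keratinocyte-made and dermal fibrillar chains, types IV and VI, Col18a1, and the 3 collagens with the smallest p in each mutant. Partner lists are shown by genes past the threshold or, failing that, the 2 with the smallest p. Other genes named were chosen after their values were seen. KR control 6, LR control 5 and KN1 control 7 carry a second name in the labels and are called second-named. Alternatives tried were a DESeq2 1.42.0 Wald test, size factors by RLE, leaving low counts unfiltered or requiring a mean of 1 CPM, fitting a cohort by itself, pooling controls, dropping the second-named controls or any 1 mouse, and a replicate block for LR. Promoter sequences are from RefSeq (GRCm38.p6), matched by symbol for 29 of the 36 genes (31 windows).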

Additional observations from a re-analysis of the deposited data

Results flagged for a closer look

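In 4 of 62 sets of 4 mice (1 gene in KR or KN1), a single mouse stood apart from the other 3 by a gap that was, as a share of the set's range, above Dixon's 95% critical value. Chance sets apart about 1 in 20 such sets. Col16a1, a collagen of fibril surfaces, was at 327 CPM in KR 1, against 159 to 182 CPM in the other KR mice. Col4a2, a chain of the common type IV trimer, was at 36.1 CPM in KR 1, against 46.6 to 47.9 CPM in the others. Col4a3 was at 1.09 CPM in KR 3, against 1.94 to 2.02 CPM in the others. Col11a2, a minor fibrillar chain, was at 1.48 CPM in KN1 1, against 4.01 to 4.05 CPM in the others.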

How the results depend on the processing

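Of 380 alternative values for 15 single-gene results, 363 kept their side of the threshold, 5 of them with a changed sign in genes that did not pass, and 0 called values changed direction. Mice were left out one at a time, counting only fits that kept at least 2 mice in each group. Collagens called then ranged from 0 to 2 in KR (2 without KR 4, Col7a1 and Col8a1). The range was 0 to 1 in LR, with 0 in KN1 throughout. Over all genes, KR had 19 calls without KR 3, 24 without KR 5, 651 without KR 4 and 1353 without LR control 5. Where so few genes were called at large, 0 collagens says little about collagens. The LR call, Col8a1, was lost without LR 1, LR 2, LR 3, LR control 3, LR control 5 or KN1 4. It was also lost with the LR cohort fitted alone (0 calls) and with the second-named controls left out (0 calls). With all 7 controls pooled, 1 collagen was called in KR (Col8a1), 3 in KN1 (Col18a1, Col4a5 and Col4a6) and 1 in the difference of LR and KN1 (Col23a1). Of all genes, 809 were then called in KR, beside 264 in the main fit. The counts over all genes for KN1 and for the difference are not given here. Without them, the pooled calls there cannot be read as a result about collagens. Pooling adds controls of other batches, so deletion and batch cannot be told apart in these calls. Against their own controls, Col4a5 and Col4a6 had log2 fold changes of -0.038 and -0.16 in KN1. DESeq2 called 2 in KR, where it called 1086 of all genes, 2 in LR and 1 in KN1. Its counts over all genes in LR and KN1 are not given here. The median log2 fold change of the dermal fibrillar chains ranged from -0.33 (without KR control 4) to 0.99 (without KR control 6) in KR, was -0.053 without KR 3, and ranged from -0.35 to 0.95 in KN1 (without KN1 control 1 and 7). With the second-named controls left out it was 0.99 in KR and 0.95 in KN1. The keratinocyte-made median in LR was 0.32 with pooled controls, 0.11 with the second-named controls left out, and -0.10 to 0.11 with 1 mouse left out (LR control 2 and LR control 5). The cause of these shifts was not tested.

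Replicate numbers 2 and 3 occur in both LR and its controls. Same-numbered mice did not deviate together (correlations 0.066 and -0.084), so the numbers were not taken to pair mice. With the replicate block, fitted to the LR cohort alone so that the comparison rests on those 4 mice, 1 collagen was called, Col1a1. So few mice leave very little to estimate spread from, and the count over all genes in that fit is not given here. The call is therefore not read as a result about Col1a1, which overlapped its controls and had an adjusted p of 0.377 in the main edgeR fit. Col8a1 did not pass with the block (log2 fold change -1.21, adjusted p = 0.127). The keratinocyte-made median was then 0.069 and the fibrillar median -0.64. No paired fit was possible in KR or KN1, which share fewer than 2 numbers with their controls. Chains with few reads, such as Col2a1, Col14a1 and Col15a1, had standard errors near or above 1 on the log2 scale.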
